A study of Mus musculus with 21 samples.

Results

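The colony-stimulating factors and their receptors were followed as 8 of the 22180 mouse genes measured. They comprised the ligands Csf1, Il34, Csf2 and Csf3 and the receptor chains Csf1r, Csf2ra, Csf2rb and Csf3r. The genes were chosen by name, and all 8 were on the arrays. Each was read from a probe set assigned to that gene alone, taking the one with the highest mean over the 21 arrays where there were several.

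RNA from mouse mammary carcinoma was measured on Affymetrix whole-transcript arrays, and the values are log2 signals. Mixed tumours (5 arrays) grew from a 1:1 implant of the lines Py117 and Py8119, and Py8119 tumours (5 arrays) and Py117 tumours (5 arrays) grew from 1 line each. Py8119 and Py117 were also profiled in culture, with 3 arrays for each line in medium with 5% serum. For the tumours, 1000000 cells were placed in mammary fat pad 4 in 50% Matrigel, and nothing was treated. Both lines are clones from MMTV-PyMT mice, in which a mammary tumour virus promoter drives the polyomavirus middle T oncogene in mammary epithelium, so each stands for a single clone. The design calls Py117 tumours sensitive and Py8119 tumours resistant in their immune response to radiation, and asks how the clones behave in a shared microenvironment. The strain and age of the hosts are not given in the sources used here. The replicates are called biological, with no culture or animal named, so the p-values measure the spread between these samples.

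Csf1 and Il34 are separate ligands of 1 receptor tyrosine kinase, Csf1r, which macrophages need to survive and grow. Csf2 (GM-CSF) signals through its own chain Csf2ra and the shared beta chain Csf2rb to JAK2 and STAT5, and Csf3 (G-CSF) signals through Csf3r and drives the making and release of neutrophils. In mammary tumours of MMTV-PyMT mice, Csf1 is known for its part in macrophage recruitment.

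The array medians lay between 5.24 and 5.53, and arrays of 1 group correlated at r of 0.970 to 0.994. A background level of 5.31 was used, which is the 95th percentile of the means of 1390 olfactory and vomeronasal receptor genes, whose median was 3.28. The epithelial carcinoma list (Epcam, keratins and others, 7 genes) had a mean level of 6.65 to 6.77 in Py8119 cultures and 10.7 to 10.8 in Py117 cultures. Of its markers, Epcam and Esrp1 were under background in Py8119 cultures and tumours. A mesenchymal list (6 genes, Vim and Zeb1 among them) ran the other way, at 10.8 to 10.9 in Py8119 cultures and 8.07 to 8.40 in Py117 cultures.

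Csf1 and Il34 were the members that separated the tumours most clearly. Both were higher in Py8119 and in mixed tumours than in Py117 tumours, by 3.20-fold to 4.49-fold. Csf3 was high in Py117 cultures alone among the 5 groups. Csf1r was 20.3-fold (Py8119) and 20.8-fold (Py117) higher in tumours than in cultures, with Py117 cultures close to background. Csf2ra and Csf3r were also higher in tumours.

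A gene was called where the limma p, adjusted by Benjamini-Hochberg over the 22180 genes, was under 0.05. In Py8119 against Py117 cultures 6 of the 8 members were called, where 26.8% of all genes were. Csf1, Il34 and Csf2 were higher and Csf3, Csf2ra and Csf2rb lower. In each fit that left out 1 culture array only 3 to 4 members were called, since the calls of Csf1, Csf2 and Csf2rb were each lost in 5 of the 6 fits. Of all 22180 genes, 4319 to 5403 were called in those fits, against 5942 with every culture array. In Py8119 against Py117 tumours 5 members were called, where 37.4% of all genes were, and Csf1, Il34, Csf2 and Csf1r were higher and Csf3r lower. In mixed against Py117 tumours 4 members were called, where 36.1% of all genes were, and Csf1, Il34, Csf2 and Csf1r were higher. Between mixed and Py8119 tumours limma called 0 members and 1.78% of all genes. At an unadjusted p under 0.05, 3 members (Il34, Csf2 and Csf3r) passed there, as did 2980 of all 22180 genes.

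In Py117 tumours against Py117 cultures 7 members were called, where 30.7% of all genes were. Csf1r, Csf2ra and Csf3r were higher there, and the 4 ligands were lower, with the Csf2 call lost in 6 of the 8 fits that left out 1 array (adjusted p 0.0575 to 0.139). In Py8119 tumours against Py8119 cultures 4 members were called, where 37.1% of all genes were, and these were the 4 receptor chains, all higher. The interaction asks whether the tumour minus culture difference of Py8119 exceeded that of Py117. It was called for 5 members, where 13.5% of all genes were, and it was positive for Csf1, Il34, Csf3, Csf2ra and Csf2rb. The members' median interaction was 1.16 on the log2 scale, against 0.03 over all genes. The counts include Csf2 in 4 of the 7 comparisons, although its group means were all under background.

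The median difference of the members was 0.22 in culture, against -0.01 over all genes. It was 0.26 between Py8119 and Py117 tumours, against 0.01, and 0.20 between mixed and Py117 tumours, against -0.03. Centring each array on its median moved the median difference of all genes by 0.149 in culture and by 0.104 between Py8119 and Py117 tumours. It moved it by -0.160 between Py117 tumours and cultures and by -0.205 between Py8119 tumours and cultures. The share of called genes that were higher was 54.0% in culture, and 70.4% after centring. It was 56.0% between Py8119 and Py117 tumours, and 68.0% after centring, and 90.9% between mixed and Py8119 tumours, and 79.5% after centring. For tumours against cultures it was 40.5% in Py117, and 22.6% after centring, and 43.8% in Py8119, and 20.7% after centring.

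**Figure D1:**
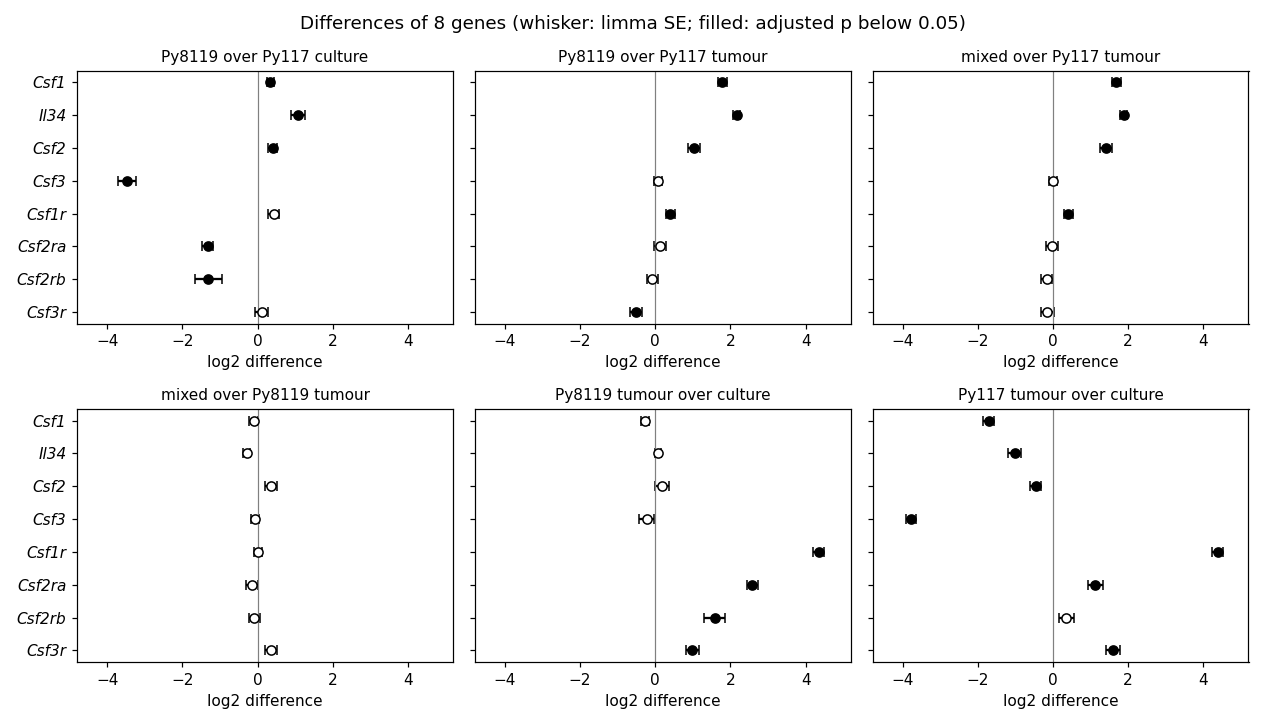
Log2 differences of the 8 members in each comparison between groups, with their standard errors, the first-named group minus the second. The interaction is not shown. Csf1 and Il34 lie well above 0 in Py8119 and mixed tumours against Py117 tumours, and Csf3 lies at -3.48 in Py8119 against Py117 cultures.

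Csf1, which supports macrophage survival, is at chr3:107741048-107760469 of GRCm38.p6. Its signals were 10.56, 10.36, 10.61, 10.57 and 10.75 in mixed tumours. They were 10.86, 10.81, 10.65, 10.49 and 10.54 in Py8119 tumours, and 8.54, 8.96, 9.21, 8.86 and 8.89 in Py117 tumours. Every mixed and Py8119 tumour was above every Py117 tumour, while mixed and Py8119 tumours overlapped. Csf1 was higher in Py8119 than in Py117 tumours by 1.78 ± 0.12 (SE, limma adjusted p = 1.11e-09), or 3.43-fold. In mixed tumours it was higher than in Py117 tumours by 1.68 ± 0.12 (adjusted p = 5.01e-09), or 3.20-fold. The difference between mixed and Py8119 tumours was -0.10 ± 0.12 (adjusted p = 0.756).

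In culture Csf1 was 10.94, 10.99 and 10.90 in Py8119 and 10.59, 10.71 and 10.52 in Py117. The difference was 0.34 ± 0.09 (SE, adjusted p = 0.0355), or 1.26-fold, and the lines did not overlap. That call was lost in 5 of the 6 fits that left out 1 array, where the adjusted p was 0.0678 to 0.122. Csf1 fell in Py117 tumours, to a mean of 8.89 ± 0.24 (SD, n = 5), against 10.61 ± 0.09 (SD, n = 3) in Py117 cultures, a difference of -1.71 ± 0.14 (adjusted p = 9.80e-06). In Py8119 tumours it averaged 10.67 ± 0.16 (SD, n = 5), against 10.94 ± 0.04 (SD, n = 3) in Py8119 cultures, a difference of -0.27 ± 0.11 that did not pass (adjusted p = 0.0728). The interaction was 1.44 ± 0.18 (adjusted p = 3.36e-05).

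Il34, the other Csf1r ligand, is at chr8:110741829-110805949. It was 8.45, 8.36, 8.24, 8.62 and 8.62 in mixed tumours. Its signals were 8.86, 8.74, 8.70, 8.73 and 8.66 in Py8119 tumours, and 6.41, 6.61, 6.43, 6.75 and 6.66 in Py117 tumours. All mixed tumours were below all Py8119 tumours and above all Py117 tumours. Il34 was higher in Py8119 than in Py117 tumours by 2.17 ± 0.09 (SE, adjusted p = 6.33e-12), or 4.49-fold. In mixed tumours it was 1.89 ± 0.09 above Py117 tumours (adjusted p = 1.20e-10), or 3.70-fold. The gap of -0.28 ± 0.09 between mixed and Py8119 tumours did not pass (adjusted p = 0.183).

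In culture Il34 was 8.72, 8.61 and 8.69 in Py8119 and 7.21, 7.96 and 7.61 in Py117. Py8119 was higher by 1.07 ± 0.18 (adjusted p = 0.00463), or 2.11-fold, with no overlap. Il34 fell in Py117 tumours relative to Py117 cultures, with a difference of -1.02 ± 0.16 (adjusted p = 0.000791), while in Py8119 the tumour difference was 0.07 ± 0.08 (adjusted p = 0.553). The interaction was 1.09 ± 0.19 (adjusted p = 0.000675).

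**Figure D2:**
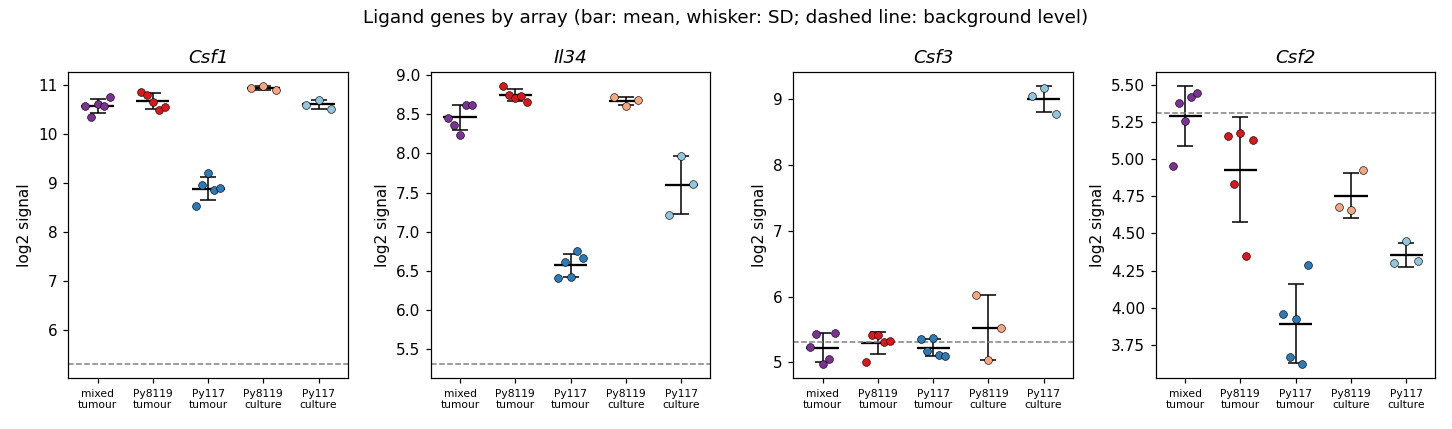
Log2 signal of the ligand genes on each array, by group (points), with the mean (bar), the SD (whisker) and the background level of 5.31 (dashed line). Py117 tumours are the lowest group for Csf1 and Il34, and Py117 cultures are the highest for Csf3.

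In order of mean, Csf1 was highest in Py8119 cultures, then in Py8119 tumours, Py117 cultures, mixed tumours and Py117 tumours. Its ranges overlapped between Py8119 tumours and Py117 cultures and between Py117 cultures and mixed tumours. The 6 endothelial markers were all lower in Py8119 than in Py117 tumours, with a list mean of 6.59 to 7.07 in Py8119 tumours and 7.98 to 8.85 in Py117 tumours. All 6 fibroblast markers were lower too, at 7.14 to 7.91 in Py8119 tumours and 8.71 to 9.86 in Py117 tumours. Of these, Pdgfra was also above background in cultures, at means of 8.81 in Py8119 and 7.37 in Py117, where the other 5 were under it. The mesenchymal list was at 10.6 to 10.7 in Py8119 tumours and 8.64 to 8.99 in Py117 tumours, with 5 of 6 genes called higher. Limma called 37.4% of all genes between these tumours. Whether these differences in makeup have a part in the Csf1 and Il34 differences was not tested. In bulk tumours, fewer cells of a type and less RNA per cell cannot be told apart.

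The place of each mixed tumour was computed on the linear scale, as the share of the way it lay toward the Py8119 tumour mean, counted in percent with the Py117 tumour mean at 0. For Csf1 the 5 mixed tumours were at 89.3, 72.0, 93.0, 90.1 and 107%, with a mean of 90.4 ± 12.6% (SD, n = 5). For Il34 they were at 76.1, 70.4, 62.2, 89.5 and 89.5%, with a mean of 77.5 ± 11.97% (SD, n = 5). Both means lay on the Py8119 side of the midpoint. Over all 1953 genes with a called difference of at least 1 between the parental tumours the median was 86.4%, with quartiles of 77.6 and 93.7%. For the 784 of them that were higher in Py8119 tumours it was 85.9%, with quartiles of 73.6 and 98.9%, so Csf1 and Il34 lay within that range.

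Csf1r, the receptor of both ligands, gave 10.33, 10.37, 10.57, 10.44 and 10.59 in mixed tumours. It gave 10.79, 10.55, 10.42, 10.25 and 10.23 in Py8119 tumours, and 9.86, 10.04, 10.01, 9.98 and 10.36 in Py117 tumours. The tumour groups overlapped through 1 Py117 tumour at 10.36. Csf1r was higher in Py8119 than in Py117 tumours by 0.40 ± 0.12 (SE, adjusted p = 0.0106), or 1.32-fold, and in mixed than in Py117 tumours by 0.41 ± 0.12 (adjusted p = 0.00987), or 1.33-fold. Mixed and Py8119 tumours differed by 0.01 ± 0.12 (adjusted p = 0.977).

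In culture Csf1r was 5.94, 6.24 and 6.13 in Py8119 and 5.94, 5.55 and 5.53 in Py117. All were above background, but those of Py117 were close to it. The 0.43 ± 0.14 between the lines did not pass (adjusted p = 0.0677). Py8119 tumours were above Py8119 cultures by 4.34 ± 0.14 (adjusted p = 1.57e-08), or 20.3-fold. Py117 tumours were above Py117 cultures by 4.38 ± 0.14 (adjusted p = 1.71e-08), or 20.8-fold, which is not an exact size with those cultures close to background. The interaction was -0.03 ± 0.21 (adjusted p = 0.943).

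Macrophage markers moved with Csf1r between tumours and cultures and among the tumour groups, but not between the cultures. The mean level of 14 markers was 9.72 to 10.1 in mixed tumours, 9.59 to 9.94 in Py8119 tumours and 9.24 to 9.58 in Py117 tumours. It was 5.47 to 5.93 in Py8119 cultures and 6.02 to 6.07 in Py117 cultures. That order was the reverse of that of Csf1r, which averaged 6.10 in Py8119 cultures and 5.67 in Py117 cultures. Adgre1, Itgam and Cd163 were under background in both cultures, and Fcgr1, Lyz2 and Aif1 also in Py8119 cultures. In Py8119 against Py117 tumours, where 37.4% of all genes were called, 8 of the 14 were higher and 2 lower. The 2 lower were Cd14 (-1.34) and Aif1 (-0.68). In Py8119 tumours against cultures, where 37.1% of all genes were called, all 14 were higher. In Py117 tumours against cultures 13 of 14 were higher, where 30.7% of all genes were called. The exception was Cd14, at a mean of 9.56 in Py117 tumours and 9.85 in Py117 cultures. Csf1r minus the macrophage list mean was 0.64 ± 0.09 in mixed tumours, 0.72 ± 0.10 in Py8119 tumours and 0.65 ± 0.17 in Py117 tumours (SD, n = 5 each). The part of macrophage number in the Csf1r difference was not tested.

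**Figure D3:**
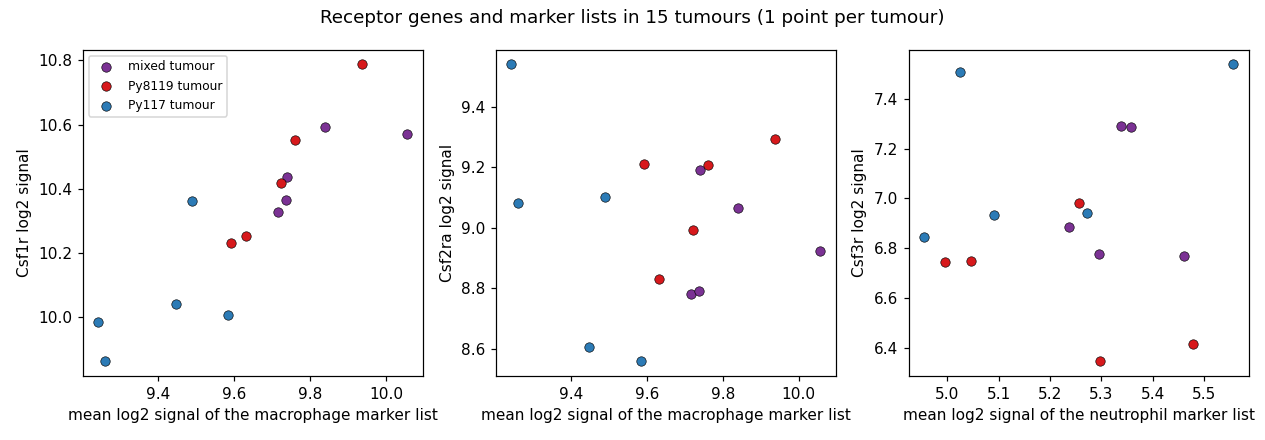
Receptor signal against the mean log2 level of the marker list on the same array, with 1 point for each mixed, Py8119 and Py117 tumour. Csf1r and Csf2ra are set against 14 macrophage markers, and Csf3r against 13 neutrophil markers. Cultures are not shown.

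Csf3, the neutrophil growth factor at chr11:98700183-98703631, was 6.02, 5.03 and 5.53 in Py8119 cultures and 9.06, 9.18 and 8.78 in Py117 cultures. The lines were far apart, by -3.48 ± 0.24 (SE, adjusted p = 7.87e-05), so that Csf3 was 11.2-fold lower in Py8119 cultures. The Py8119 culture at 5.03 was under background and that at 5.53 close to it, so the fold is not an exact size. In tumours it was 5.23, 5.42, 4.97, 5.04 and 5.45 in mixed, 5.00, 5.42, 5.42, 5.31 and 5.32 in Py8119 and 5.36, 5.18, 5.37, 5.12 and 5.10 in Py117. These 3 group means, 5.22, 5.29 and 5.22, were all under background.

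Csf3 fell in Py117 tumours relative to Py117 cultures, with a difference of -3.78 ± 0.13 (adjusted p = 1.74e-08), at least 12.9-fold lower when the tumours are set at the background level. In Py8119 the tumour minus culture difference was -0.23 ± 0.19 (adjusted p = 0.390). The interaction was 3.55 ± 0.24 (adjusted p = 6.28e-08), with both tumour groups under background, so it follows the difference between the cultures. Between Py8119 and Py117 tumours the difference was 0.07 ± 0.11 (adjusted p = 0.702), with both under background.

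Csf3r, the G-CSF receptor at chr4:126023441-126044975, was 6.78, 6.77, 7.29, 7.29 and 6.89 in mixed tumours. It was 6.98, 6.75, 6.74, 6.41 and 6.35 in Py8119 tumours and 6.93, 6.84, 6.94, 7.51 and 7.54 in Py117 tumours. The groups overlapped, and Csf3r was 1.42-fold lower in Py8119 than in Py117 tumours (-0.51 ± 0.17, adjusted p = 0.0215). The call was lost when Py8119 tumour 4, Py8119 tumour 5, Py117 tumour 4 or Py117 tumour 5 was left out, where the adjusted p was 0.0591 to 0.0660, and with centring (adjusted p = 0.0560). Mixed tumours differed from Py117 tumours by -0.15 ± 0.17 (adjusted p = 0.523) and from Py8119 tumours by 0.36 ± 0.17 (adjusted p = 0.361).

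Csf3r was 5.77, 5.31 and 5.89 in Py8119 cultures and 5.47, 5.397 and 5.78 in Py117 cultures, close to background and with no called difference (adjusted p = 0.699). It was higher in tumours than in cultures by 0.99 ± 0.17 in Py8119 (adjusted p = 0.00126), or 1.98-fold, and by 1.61 ± 0.19 in Py117 (adjusted p = 0.000103), or 3.04-fold. The neutrophil list of 13 markers was at 5.24 to 5.46 in mixed tumours, 5.00 to 5.48 in Py8119 tumours and 4.95 to 5.56 in Py117 tumours. It was at 4.62 to 4.73 in Py8119 cultures and 4.91 to 5.14 in Py117 cultures. S100a8, Ly6g, Ngp, Camp and Mpo were under background in all 3 tumour groups. Cxcr2, Retnlg, Elane, Il1r2 and Trem1 were above it in all 3, with Elane close to it at means of 5.33 to 5.48. Of the 13, 2 were higher and 1 was lower in Py8119 than in Py117 tumours, where 37.4% of all genes were called. The 2 higher were Mmp8 and Trem1, opposite in direction to Csf3r. The lower was Ltf, which averaged 6.08 in Py117 tumours and 7.40 in Py117 cultures. The part of neutrophils in the Csf3r values was not tested.

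**Figure D4:**
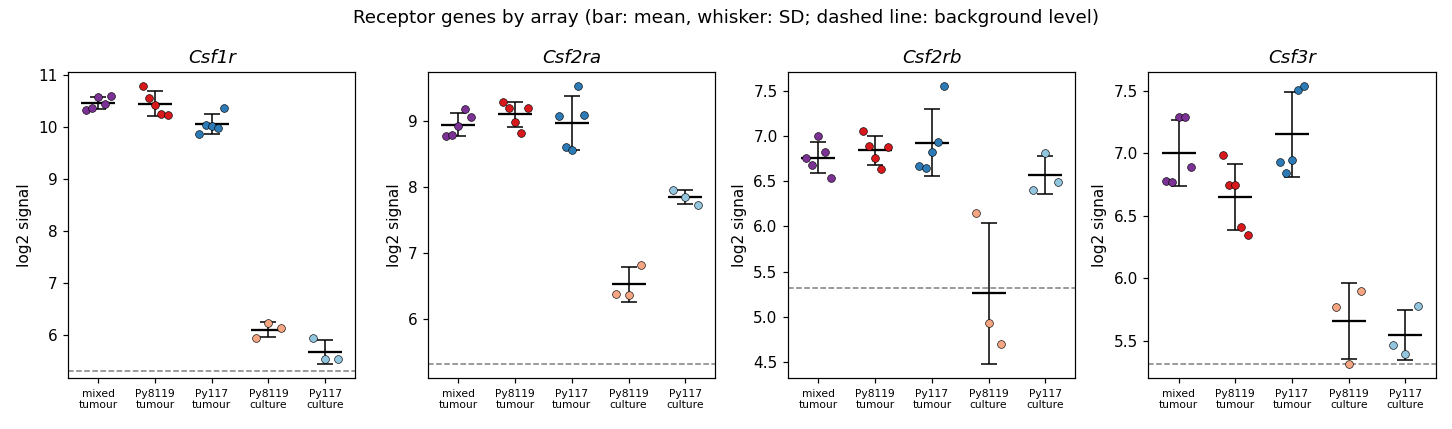
Log2 signal of the receptor genes on each array, by group (points), with the mean (bar), the SD (whisker) and the background level of 5.31 (dashed line). Csf1r, Csf2ra and Csf3r are higher in every tumour than in every culture.

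Csf2ra, the GM-CSF binding chain at chr19:61217191-61228461, was 8.78, 8.79, 8.92, 9.19 and 9.07 in mixed tumours. It was 9.29, 9.21, 8.99, 8.83 and 9.21 in Py8119 tumours and 9.08, 8.61, 8.56, 9.54 and 9.10 in Py117 tumours. The 3 tumour groups overlapped throughout. Py8119 and Py117 tumours differed by 0.13 ± 0.16 (adjusted p = 0.605), and mixed and Py117 tumours by -0.03 ± 0.16 (adjusted p = 0.917). Csf2ra minus the macrophage list mean was -0.87 ± 0.22 in mixed, -0.62 ± 0.16 in Py8119 and -0.43 ± 0.53 in Py117 tumours (SD, n = 5 each).

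In culture Csf2ra was 6.38, 6.37 and 6.82 in Py8119 and 7.96, 7.86 and 7.74 in Py117, with no overlap. It was 2.51-fold lower in Py8119 cultures (-1.33 ± 0.15, adjusted p = 0.000647). Py8119 tumours were above Py8119 cultures by 2.58 ± 0.14 (adjusted p = 6.67e-07), or 5.99-fold, and Py117 tumours above Py117 cultures by 1.13 ± 0.21 (adjusted p = 0.00180), or 2.18-fold. The interaction was 1.46 ± 0.27 (adjusted p = 0.00114).

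Csf2rb, the shared beta chain at chr15:78325800-78351001, was 6.76, 6.68, 6.998, 6.82 and 6.53 in mixed tumours. It was 7.05, 6.89, 6.75, 6.63 and 6.88 in Py8119 tumours and 6.67, 6.65, 6.82, 6.93 and 7.56 in Py117 tumours. The tumour groups overlapped, and Py8119 and Py117 tumours differed by -0.08 ± 0.15 (adjusted p = 0.727), and mixed and Py117 tumours by -0.17 ± 0.15 (adjusted p = 0.412). In culture it was 6.15, 4.93 and 4.69 in Py8119 and 6.40, 6.81 and 6.49 in Py117. The lines did not overlap, and Csf2rb was lower in Py8119 cultures (adjusted p = 0.0334), at least 2.39-fold lower with Py8119 set at background. Py8119 culture 1 stood above its group, and without it the difference was -1.76 (adjusted p = 0.000740), while leaving out any other array lost the call (adjusted p 0.0786 to 0.109).

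Csf2rb was higher in Py8119 tumours than in Py8119 cultures (adjusted p = 0.00120), at least 2.88-fold. In Py117 the tumour minus culture difference was 0.36 ± 0.20 (adjusted p = 0.219). The interaction was 1.23 ± 0.37 (adjusted p = 0.0340), and 9 of the 16 fits without 1 array lost it (adjusted p 0.0529 to 0.113). The near copy Csf2rb2, the mouse beta chain for IL-3, averaged 8.22 ± 0.39 in mixed, 7.85 ± 0.17 in Py8119 and 8.18 ± 0.63 in Py117 tumours (SD, n = 5 each). It averaged 4.34 ± 0.69 in Py8119 cultures and 4.49 ± 0.46 in Py117 cultures (SD, n = 3 each), both under background. Csf2rb2 was at least 5.79-fold higher in Py8119 tumours than in culture (adjusted p = 3.95e-06) and at least 7.31-fold higher in Py117 tumours (adjusted p = 1.54e-05). Because the copies are alike, their probes could share signal, so each value is uncertain.

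The promoter windows of 4 members, each 250 bases before to 50 after 1 start site, were taken from RefSeq (GRCm38.p6) and searched on both strands for the letters GAGGAA (a core of the sites bound by PU.1, a myeloid transcription factor) and TGANTCA (AP-1). Of all 32851 windows, 28.3% hold GAGGAA and 7.81% hold TGANTCA. The windows of Csf2ra and Csf3r hold GAGGAA, and those of Csf1 and Csf2 do not. That of the near copy Csf2rb2 holds 2 matches on the reverse strand. No window was searched for Il34, Csf1r, Csf2rb or Csf3, so receptors and ligands were not compared as classes. None of the windows of Csf1, Csf2, Csf2ra, Csf3r and Csf2rb2 holds TGANTCA. Capitals mark GAGGAA in the sequences, read 5′ to 3′ on the gene's strand, at chr19:61228369-61228668 (minus) for Csf2ra and chr4:126024409-126024708 (plus) for Csf3r.
Csf2ra: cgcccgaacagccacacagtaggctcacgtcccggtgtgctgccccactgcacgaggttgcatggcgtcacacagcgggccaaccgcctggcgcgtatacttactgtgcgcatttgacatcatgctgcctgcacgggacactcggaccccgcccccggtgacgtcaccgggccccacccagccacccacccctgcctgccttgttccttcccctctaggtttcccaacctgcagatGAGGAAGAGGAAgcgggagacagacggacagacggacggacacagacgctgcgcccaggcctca
Csf3r: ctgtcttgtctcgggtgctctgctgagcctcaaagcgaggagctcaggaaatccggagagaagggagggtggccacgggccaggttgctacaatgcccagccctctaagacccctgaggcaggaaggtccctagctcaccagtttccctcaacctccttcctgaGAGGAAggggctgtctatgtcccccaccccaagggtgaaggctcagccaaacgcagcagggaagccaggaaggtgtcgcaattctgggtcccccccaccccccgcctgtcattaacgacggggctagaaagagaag

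The Csf2ra window holds 2 adjacent copies, and the Csf3r window 1. The start site of the Csf3r window lies 1218 bases inside the gene's span given above, so that window does not cover the gene's outer end. That of the Csf2ra window lies 43 bases inside, and this window covers the outer end. The start sites of the Csf1 and Csf2 windows lie at the outer ends of their genes. A match is a description of letters and was not tested for binding.

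Csf2 (GM-CSF), at chr11:54247270-54249899, was above background on only 3 of the 21 arrays, all mixed tumours, with the highest at 5.45. It was 4.95, 5.38, 5.25, 5.42 and 5.45 in mixed tumours, 5.16, 4.84, 5.18, 4.35 and 5.13 in Py8119 tumours and 3.96, 3.67, 3.93, 3.62 and 4.29 in Py117 tumours. In culture it was 4.68, 4.66 and 4.93 in Py8119 and 4.30, 4.45 and 4.31 in Py117. It was called between Py8119 and Py117 tumours (1.04 ± 0.16, adjusted p = 4.14e-05) and between mixed and Py117 tumours (1.398 ± 0.16, adjusted p = 2.03e-06). The second probe set of Csf2 did not move that way, with -0.07 ± 0.12 (adjusted p = 0.731) and -0.32 ± 0.12 (adjusted p = 0.0518) in these comparisons. It was also called between Py8119 and Py117 cultures (0.40 ± 0.11, adjusted p = 0.0341) and between Py117 tumours and cultures (-0.46 ± 0.15, adjusted p = 0.0412). The second probe set gave -0.03 ± 0.25 (adjusted p = 0.946) and 0.03 ± 0.13 (adjusted p = 0.889) there. The culture call was lost in 5 of the 6 fits without 1 array (adjusted p 0.0514 to 0.111), and with the mean of probe sets neither call held (adjusted p 0.412 and 0.158). With all group means under background, no fold is given.

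The order of the groups differed between members. Il34 was highest in Py8119 tumours, then Py8119 cultures and mixed tumours, whose ranges overlapped with their neighbour's, and Py117 cultures and Py117 tumours followed, each apart. Csf1r was highest in mixed, Py8119 and Py117 tumours, which overlapped, and the cultures lay apart below. Csf2ra was highest in Py8119, Py117 and mixed tumours, which overlapped, with Py117 cultures next and Py8119 cultures last, each apart. Csf2rb overlapped across the 3 tumour groups and Py117 cultures, and Py8119 cultures alone lay apart below. Csf3 was apart in Py117 cultures, and the other 4 groups overlapped with their neighbours. Csf3r overlapped among tumours and among cultures, with the tumours apart above.

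Other cell type lists were counted between Py8119 and Py117 tumours, where 37.4% of all genes were called. All 6 measured T cell markers were lower in Py8119 tumours (median difference -1.54), as were 4 of 5 adipocyte markers (median -1.32). The adipocyte list mean was 8.38, 5.60, 5.75, 7.39 and 8.60 in Py117 tumours and 5.44 to 6.37 in Py8119 tumours. Py117 tumours 2 and 3 thus lay within the Py8119 range. Of 7 dendritic cell markers, 1 was higher and 3 were lower, and of 9 mast cell and eosinophil markers 1 was lower. Of 4 B cell markers limma called 0, and 0 had an unadjusted p under 0.05.

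The other genes of these pathways were described by count. Limma called 37.4% of all genes between Py8119 and Py117 tumours and 26.8% between the cultures. A list count near that share is not particular to the list. Of 10 related cytokines and receptors measured, 0 were higher and 5 lower in Py8119 than in Py117 tumours (median -0.47), with Ptprz1, a receptor for Il34, at least 1.23-fold lower (adjusted p = 4.31e-08, means of 3.29 in Py8119 tumours, under background, and 5.61 in Py117 tumours) and the stem cell factor receptor Kit at -1.49 ± 0.25 (adjusted p = 0.000120). In culture 0 were higher and 3 lower, and Ptprz1 was at least 2.42-fold lower (adjusted p = 9.91e-05, means of 3.46 in Py8119 cultures, under background, and 6.59 in Py117 cultures) and Sdc1, which binds Il34, -1.09 ± 0.11 (adjusted p = 0.000427). Of 13 inducers and regulators of mRNA decay, 4 were higher and 2 lower in Py8119 than in Py117 tumours. Nfkb2, an NF-kappaB subunit, was at 1.08 ± 0.13 (adjusted p = 1.95e-06) and Rela, another, at 0.64 ± 0.12 (adjusted p = 0.000339). The transcription factor Cebpb was at -1.14 ± 0.11 (adjusted p = 2.31e-07), and the cytokine Tnf at -0.85 ± 0.18 (adjusted p = 0.00110). In culture 3 were higher and 3 lower, and Zfp36, which speeds the decay of cytokine mRNAs, was at -1.35 ± 0.11 (adjusted p = 0.000146). Cebpb was at -1.16 ± 0.17 there (adjusted p = 0.00256), Nfkb2 at 0.62 ± 0.14 (adjusted p = 0.0134) and the NF-kappaB inhibitor Nfkbia at 0.55 ± 0.11 (adjusted p = 0.0100).

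Of 18 genes of Csf1r signalling and macrophage factors, 4 were higher and 6 lower in Py8119 than in Py117 tumours. The adaptor Tyrobp was at 0.63 ± 0.11 (adjusted p = 0.000191), the adaptor Dok2 at 0.62 ± 0.11 (adjusted p = 0.000254), Pik3r1, a regulatory subunit of PI3-kinase, at -1.48 ± 0.11 (adjusted p = 1.08e-08) and Plcg2 at -1.15 ± 0.10 (adjusted p = 3.84e-08). In culture 2 were higher, the phosphatase Ptpn6 (0.54 ± 0.10, adjusted p = 0.00732) and the ubiquitin ligase Cbl (0.34 ± 0.09, adjusted p = 0.0301). There 4 were lower, with Plcg2 at -1.52 ± 0.13 (adjusted p = 0.000188) and Pik3r1 at -1.43 ± 0.13 (adjusted p = 0.000221). In Py8119 and in Py117 tumours against their cultures, 10 were higher and 2 lower in each. The shares of all genes called there were 37.1% in Py8119 and 30.7% in Py117. Of 15 genes of JAK and STAT signalling, with its regulators and targets, 1 was higher and 7 lower in Py8119 than in Py117 tumours. Between the cultures 2 were higher and 9 lower in Py8119. Socs2, a feedback inhibitor of STAT5 signalling, was at -2.44 ± 0.22 in tumours (adjusted p = 9.84e-08). In culture it was at least 11.8-fold lower in Py8119 (adjusted p = 3.12e-05), with the Py8119 mean of 5.23 under background. Stat5a was at -1.89 ± 0.15 in culture (adjusted p = 0.000133). In tumours Jak1 was at -1.24 ± 0.14 (adjusted p = 1.43e-06) and the survival factor Mcl1 at 0.42 ± 0.10 (adjusted p = 0.00218). In culture Socs1, another feedback inhibitor, was at 1.09 ± 0.11 (adjusted p = 0.000475) and the adaptor Gab2 at 0.64 ± 0.13 (adjusted p = 0.00967).

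Genes whose pattern was most like each member were ranked by Pearson r over the 21 arrays among 13572 genes. These arrays share the 5 groups, so r mostly follows the group means, and r within groups is given beside it. For Csf1 they were Lhfp (r = 0.975, within groups 0.595), Slc25a24 (0.974, within groups 0.383) and Asap1 (0.972, within groups 0.550). For Il34 they were Stard6 (0.980, within groups 0.559), Cdkn2aipnl (0.980, within groups 0.740) and Pdlim2 (0.974, within groups 0.182). For Csf1r they were Fcer1g, an immunoglobulin receptor chain (0.994, within groups 0.420), the nucleotide receptor P2ry6 (0.994, within groups 0.755) and Ms4a6d (0.993, within groups 0.172). Several genes with a high r over all arrays had a low r within groups.

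For Csf2ra the genes were Abcc3 (0.972, within groups 0.628), Il10rb (0.964, within groups 0.422) and Elmo1 (0.963, within groups 0.645). For Csf2rb they were Klc4 (0.883, within groups 0.488), Prkcd (0.881, within groups 0.614) and Cxcl16 (0.878, within groups 0.517), the lowest r of any member. For Csf3 they were Bpifb4 (0.977, within groups -0.116), Artn (0.976, within groups 0.297) and Bpifb3 (0.975, within groups 0.102). For Csf3r they were Cyria (0.961, within groups 0.785), Neurl3 (0.957, within groups 0.705) and Itga4 (0.952, within groups 0.670).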

How the data were processed

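Total RNA was labelled with the Affymetrix WT PLUS assay, per the labels. RMA produced the deposited log2 signals, according to the submitters' processing notes. These list limma too, and neither tool has a version there. Of 41345 probe sets, 23521 had a single gene symbol, 1814 several and 16010 none. The single-symbol sets gave 22180 genes, and for the 1082 genes with several sets the one with the highest mean was used.

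The fits used R 4.3.3 and its package limma 3.58.1 (functions lmFit and eBayes), with Benjamini-Hochberg adjustment over all genes. The culture comparison used the 6 culture arrays, the tumour comparisons 1 fit of 15 arrays, each tumour and culture comparison its line's 8 arrays, and the interaction the 16 arrays of unmixed groups. Tables and figures were made with Python 3.11.15, pandas 2.3.3 and matplotlib 3.10.9. The fit was tested on simulated data. No batch is given in the labels, so a batch between cultures and tumours cannot be told apart from sample type. The number of arrays limits the precision.

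Same-numbered samples deviated together at r of 0.0401 to 0.135 in cultures and -0.234 to 0.257 in tumours, so the numbers were not used for pairing. The alternatives were quantile normalization, median centring, a filter on low values, the mean of probe sets, an intensity trend with a robust prior, a replicate block, 1 fit of all arrays, omission of each array in turn, and the log2 scale for positions.

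All 8 members are named. From each of 4 pathway lists, up to 2 called genes with the largest difference in each direction are named for Py8119 against Py117 tumours and cultures, with Csf2rb2 and the 3 genes most like each member above background. Defining markers of cell type lists are named beside members that moved with them. The members and lists were chosen with earlier results of these data known.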

Additional observations from a re-analysis of the deposited data

Results flagged for a closer look

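For 5 members the tumour minus culture difference of Py8119 differed from that of Py117 by the interaction in limma. The interactions, on the log2 scale, were 3.55 for Csf3, 1.46 for Csf2ra, 1.44 for Csf1, 1.23 for Csf2rb and 1.09 for Il34. Csf3 was under background in both tumour groups and Csf2rb in Py8119 cultures, so these 2 values are not exact sizes.

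The Csf3 signal of Py8119 tumour replicate 1, 5.00, lay apart from the other 4 Py8119 tumours, with a gap of 0.736 of the group's range, against a limit of 0.71. It was 1 of 27 sets of a gene and a group examined, chance marks about 1 in 20 such sets, and the signal was under background.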

How the results depend on the processing

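The arrays number 3 to 5 in a group, and signals near the background level of 5.31 carry little information. This limits Csf2 throughout, Csf3 in tumours and in Py8119 cultures, Csf1r in Py117 cultures, and Csf3r and Csf2rb in cultures. With the replicate as a block, 3 members were called in culture instead of 6, and 5185 of all 22180 genes instead of 5942. Samples correlated best with their own number in 8 of 10 cases between mixed and Py117 tumours (pairs at r of -0.055 to 0.257) and in 4 of 6 between cultures. The counts were 2 of 10 between Py8119 and Py117 tumours, 0 of 10 between mixed and Py8119 tumours, and 3 of 6 and 1 of 6 between tumours and cultures of Py117 and Py8119. These are hints from the data, not from the design. After centring on the median, 5 differences that had not been called changed sign. They were Csf2rb between Py8119 and Py117 tumours (0.019), Csf2ra between mixed and Py117 tumours (0.038), Csf1r between mixed and Py8119 tumours (-0.028), and Il34 (-0.14) and Csf2 (-0.030) between Py8119 tumours and cultures. The position for Csf2 rests on means under background and has no exact meaning, and it was 113% with the mean of probe sets, against 152%. The cause was not tested. The Csf1 call in culture was also lost with quantile normalization (adjusted p = 0.0553), 1 fit (0.0752) and the replicate block (0.0618), and that of Csf2rb with quantile normalization (0.0591) and the block (0.0507). Csf1r in culture was called in 4 alternatives with no array left out (adjusted p 0.0240 to 0.0366) and without Py117 culture 1 (0.0277). Csf1 between Py8119 tumours and cultures was called after centring (-0.47, adjusted p = 0.00599), with the filter (0.0313) and with the trend (0.0248).

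Leaving out 1 array at a time, 3 to 4 members were called in culture, 4 to 5 between Py8119 and Py117 tumours, 4 in every fit between mixed and Py117 tumours and 0 between mixed and Py8119 tumours. The counts were 6 to 7 for Py117 and 4 to 5 for Py8119 tumours against cultures, and 4 to 6 for the interaction. Positions were 86.1 to 94.9% for Csf1, 74.5 to 81.4% for Il34 and, with that limit, 145 to 165% for Csf2. Differences that changed sign ranged from -0.0059 to 0.28 for Csf3r in culture, -0.15 to 0.073 for Csf2rb between Py8119 and Py117 tumours, -0.13 to 0.11 for Csf2ra and -0.056 to 0.063 for Csf3 between mixed and Py117 tumours. They ranged from -0.043 to 0.10 for Csf1r between mixed and Py8119 tumours, -0.48 to 0.014 for Csf3 between Py8119 tumours and cultures, and -0.17 to 0.043 for the Csf1r interaction. Csf3 between Py8119 tumours and cultures was called without Py8119 culture 2 (-0.48, adjusted p = 0.0423).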
